A study of Solanum tuberosum with 6 samples.

Results

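miR396 is a miRNA family that is conserved across seed plants. Its members were taken as every row of the miRNA table named by a species prefix and -miR396 with no further digit, whatever the length or the arm of the hairpin, and this gave 5 of 910 sequences. Rows written -MIR396 were left out, and these 4 rows held 5 reads in all. The libraries are small RNA of leaves of potato (Solanum tuberosum, cv. Shepody), from plants that were 24 days past emergence. On day 21 the control plants (libraries C1, C3, C5) had received a water spray, and the others (libraries T2, T4, T6) 5 mL per plant of potassium phosphite, KPhi, as a 1% (v/v) solution of a commercial product, and harvest followed 72 h later. Both groups are of a single cultivar grown in pots in a greenhouse, and no genotype differs between them. The miRNA table holds no marker gene of leaf, so the tissue label was not checked. RNA came from leaf tissue in bulk, so that fewer cells with a miRNA and less of it per cell cannot be told apart.

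The 5' arm of miR396 guides the cleavage of mRNAs of GROWTH-REGULATING FACTORs (GRFs), transcription factors that act with GIF coactivators to keep leaf cells dividing. In Arabidopsis more miR396 means fewer dividing cells and smaller leaves, and miR396 is itself raised by TCP factors, the targets of miR319. The 3' arm is the partner strand of the hairpin duplex and is mostly degraded in plants. No mRNA was measured in these libraries, so GRF transcripts are not described.

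The 5 sequences are shown because rows that differ by as little as 1 base are counted apart in the results. They are written 5′ to 3′ as in the deposited table, with T for U, and the seed (bases 2 to 8) in capitals.
stu-miR396-5p: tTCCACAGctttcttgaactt
sly-miR396a-5p: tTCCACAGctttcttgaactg
nta-miR396a_L-5_1ss6CA: aAGCTTTCttgaactg
sly-miR396a-3p_1ss10AG: gTTCAATAaggctgtgggaag
stu-miR396-3p_L-1: tCCAAGAAagctgtgggaaa

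Both 5p sequences are of 21 nt, have the same seed, which no other row of the table carries, and differ only in the last base (T21G, counted from 1 at the 5′ end, from the potato to the tomato name). The 16 nt row, named after tobacco, is sly-miR396a-5p without its first 5 bases and with 1 substitution (C6A in positions of sly-miR396a-5p), and it is shorter than the shortest length that the study's methods name for the mapping. Of the 3p rows, the one named after tomato is of 21 nt and the one named after potato of 20 nt, and their seeds differ from each other. RNAduplex, a program that finds the most stable pairing of 2 RNAs, gave 18 base pairs and -25.6 kcal/mol for sly-miR396a-3p_1ss10AG with either 5p sequence, and 16 base pairs and -27.1 kcal/mol for stu-miR396-3p_L-1 with either. The last base of the 5p sequences lay outside these pairs, so the pairing does not tell the 5p sequences apart.

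stu-miR396-5p, the potato form of the GRF-targeting strand, held 65.1% of the 23834 reads of the family. Its control libraries gave 4109 (C1), 1061 (C3) and 728 (C5) reads, and its KPhi libraries 6264 (T2), 433 (T4) and 2915 (T6). By these reads, which are not scaled for library size, the highest and the lowest library were both KPhi libraries. The lowest, T4, also had the fewest reads in the miRNA table (160923, against 365864 to 612266 in the others). sly-miR396a-5p held 30.8% of the reads, namely 853 (C1), 195 (C3) and 299 (C5) in the control and 5034 (T2), 272 (T4) and 686 (T6) in the KPhi libraries. T2 alone held 68.6% of its reads. Some of its read numbers are fractional in the deposited table, by a rule not given in the sources used here, so the division of reads between the near-identical 5p rows is uncertain.
sly-miR396a-3p_1ss10AG, of the partner strand, held 3.94% of the reads, namely 112 (C1), 366 (C3) and 54 (C5) in the control and 26 (T2), 200 (T4) and 181 (T6) in the KPhi libraries, with fractional reads rounded. This row was highest in C3 and lowest in T2, the library in which the 5p rows were highest. The 16 nt row had 34 of its 38 reads in T2, 1 each in C1, C5, T4 and T6, and 0 in C3. stu-miR396-3p_L-1 had 7 reads, 4 of them in T4 and 1 each in C1, T2 and T6.

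In order of total reads, stu-miR396-5p was followed by sly-miR396a-5p, sly-miR396a-3p_1ss10AG, the 16 nt row and stu-miR396-3p_L-1. stu-miR396-5p was above sly-miR396a-5p in 6 of 6 libraries, by 1.51 ± 0.89 on the log2 scale of reads plus 1 (SD, n = 6, exact sign-flip permutation test over libraries, two-sided, p = 0.0312, the smallest that 6 libraries allow, and 0.125 after adjustment over 4 neighbouring pairs). sly-miR396a-5p was above the 21 nt 3p row in 5 of 6 libraries, all but C3, and the mean difference of 2.39 ± 2.89 was smaller than its spread (SD, n = 6, exact permutation test, p = 0.0938, adjusted 0.125). The 21 nt 3p row was above the 16 nt row in 5 of 6 libraries, all but T2, by 5.32 ± 3.05 (SD, n = 6, exact permutation test, p = 0.0625, adjusted 0.125). Neither of the lowest rows could be placed above the other (0.63 ± 1.86, SD, n = 6, exact permutation test, p = 0.75). These 4 tests were chosen after the values were seen.

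For the comparison of control and KPhi, reads were scaled to normalized CPM, the reads per 1e6 reads of a library whose size is adjusted by TMM, a method that equalizes the bulk of the sequences. Of the 5 rows, 3 had at least 10 reads in at least 3 libraries and were tested with the other sequences, 165 in all, by edgeR's quasi-likelihood test. The 16 nt row and stu-miR396-3p_L-1 did not reach this number of reads.
stu-miR396-5p had 7090 (C1), 3041 (C3) and 2153 (C5) normalized CPM in the control and 18684 (T2), 1455 (T4) and 5612 (T6) in the KPhi libraries. The KPhi libraries lay above, below and within the range of the control libraries. The means were 4095 ± 2632 and 8583 ± 8990 (control and KPhi, SD, n = 3 each). The log2 fold change, KPhi against control, was 1.07 (standard error, SE, 0.79, 95% interval -0.68 to 2.82, edgeR adjusted p = 0.610), and it was -0.25 without T2 and 0.24 when libraries were scaled by mappable reads.
sly-miR396a-5p had 1472 (C1), 559 (C3) and 884 (C5) normalized CPM in the control and 15015 (T2), 914 (T4) and 1321 (T6) in the KPhi libraries. T4 and T6 lay inside the range of the control libraries, and T2 was 10.2 times the next highest library, C1. The means were 972 ± 463 and 5750 ± 8026 (control and KPhi, SD, n = 3 each), and the log2 fold change 2.56 (SE 0.96, 95% interval 0.45 to 4.67, edgeR unadjusted p = 0.0218, adjusted p = 0.470). Without T2 it was 0.19 (SE 0.54, edgeR unadjusted p = 0.724). Without a filter on low reads, which lets 841 sequences into the fit, the edgeR adjusted p was 0.00208 with all 6 libraries, and that of the 16 nt row, with its 34 reads in T2, 0.00295.
sly-miR396a-3p_1ss10AG had 193 (C1), 1049 (C3) and 160 (C5) normalized CPM in the control and 77.5 (T2), 672 (T4) and 348 (T6) in the KPhi libraries. Here T4 and T6 lay inside the range of the control libraries and T2 below it. The log2 fold change was -0.35 (SE 0.85, 95% interval -2.22 to 1.52, edgeR adjusted p = 0.833). It turned positive when libraries were scaled by their size alone (0.55), without C3 (1.19) and without T2 (0.18).

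**Figure D1:**
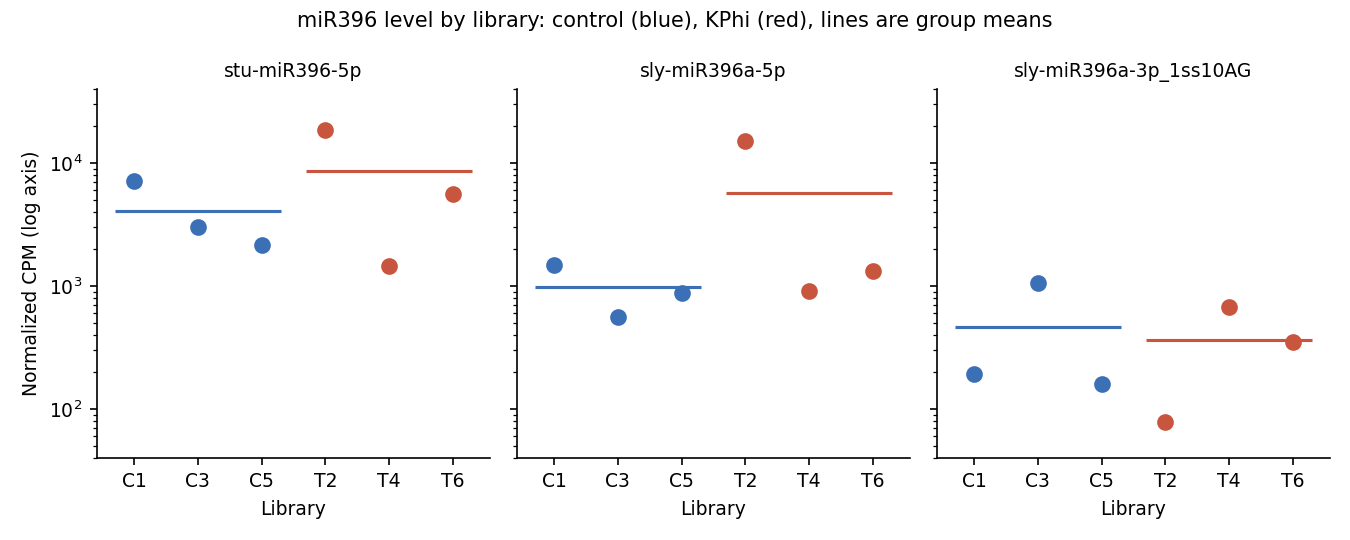
Normalized CPM (log axis) of the 3 tested miR396 sequences in each library, control in blue and KPhi in red, with lines at the group means. In T2 both 5p sequences were at their highest (18684 and 15015) and the 3p sequence at its lowest (77.5).

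Of the 3 tested members, 0 passed an adjusted p of 0.05 in edgeR, as did 0 (0%) of all 165 sequences, and 1, higher in KPhi, had an unadjusted p under 0.05, against 9.70% of all sequences, 5.45% higher and 4.24% lower. Without C3 or without T2 the latter count was 0, and without T4 it was 2. By limma-trend no member reached 0.05 before or after adjustment (0 of 3). DESeq2 gave sly-miR396a-5p no p (log2 fold change 2.64, SE 1.03), so it does not say whether this row passes. The other tested members did not reach 0.05 by DESeq2 before or after adjustment. Control and KPhi libraries overlapped in all 3 tested members, while they did not overlap in 17.0% of all sequences. The sum of the family, tested with 32 families, had 8759 (C1), 4648 (C3) and 3201 (C5) normalized CPM in the control and 33880 (T2), 3058 (T4) and 7285 (T6) in the KPhi libraries. Its log2 fold change was 1.41 (SE 0.87, edgeR adjusted p = 0.496), and -0.12 without T2. It was not among the 9.38% of families below an unadjusted threshold of 0.05. Among the 32 families miR396 had the fifth highest mean level and the fourth widest spread over the 6 libraries. Both ranks lean on T2 (33880), as the other libraries had 3058 to 8759, and they were not taken without T2.

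**Figure D2:**
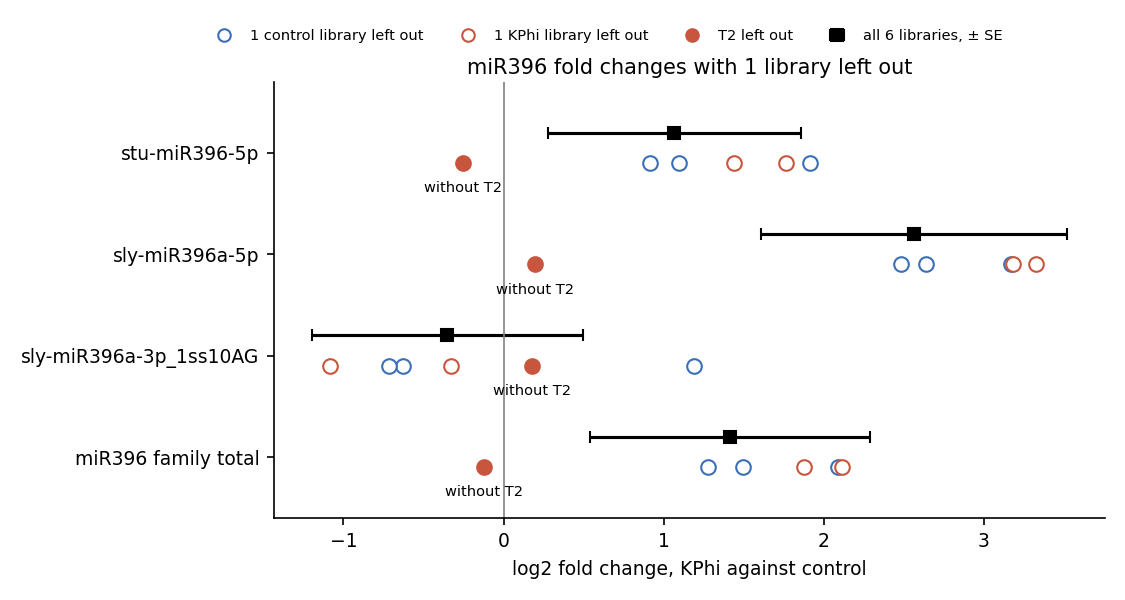
log2 fold change (KPhi against control) of the 3 tested sequences and of the family total: squares are all 6 libraries with the standard error, circles are fits with 1 library left out, filled where that was T2. Without T2 the values lay at -0.25, 0.19, 0.18 and -0.12, and the 5p sequences and the family total stayed above 0.9 when any other library was left out.

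Of the 165 tested sequences, T2 held the highest normalized CPM for 44 (26.7%) and the lowest for 44 others. In 4 of those highest in T2 it was more than 3 times the next library, and sly-miR396a-5p had the largest such ratio (10.2). The ratio of stu-miR396-5p (2.64) ranked 8 among them. T2 had the most mappable reads (8025802, against 4133739 to 5945775 in the others), and the miRNA table held 4.56% of these, against 3.66% for T4 and between 9.14% and 11.3% for the rest. The part of these values in the miR396 level of T2 was not tested. As a share of all mappable reads the family was again highest in T2, at 0.142% (95% Wilson interval 0.139% to 0.144%), followed by C1 (0.0934%), T6 (0.0636%), C3 (0.0342%), C5 (0.0262%) and T4 (0.0207%). The means were 0.0513% ± 0.0367 and 0.0753% ± 0.0612 (control and KPhi, SD, n = 3 each), and a two-sided exact permutation test gave p = 0.7, adjusted 0.7 over the 3 shares tested. Below 0.1 this test cannot go with 3 libraries a group. Without T2 the difference of 0.0240 percentage points turned to -0.0091. As a share of the reads in the miRNA table, the family had 0.829% (C1), 0.347% (C3) and 0.286% (C5) in the control. In the KPhi libraries it had 3.10% (T2), 0.565% (T4) and 0.681% (T6), so by this scaling C5 was lowest and not T4. The group difference in this share was 0.963 percentage points (exact permutation test, p = 0.3). The intervals treat each read as independent and leave out the spread between replicates. The reads carry no molecular identifiers, so reads copied from the same molecule cannot be told apart.

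The makeup of the 5p reads also differed between libraries. sly-miR396a-5p, the form ending in G, was 17.2% of the 5p reads in C1 (95% Wilson interval 16.2% to 18.3%), 15.5% in C3 (13.6% to 17.6%) and 29.1% in C5 (26.4% to 31.97%). In KPhi libraries it was 44.6% in T2 (43.6% to 45.5%), 38.6% in T4 (35.1% to 42.2%) and 19.1% in T6 (17.8% to 20.4%). Thus T2 and T4 were above every control library, and T6 lay inside the control range. By 5p normalized CPM T2 had the highest and T4 the lowest sum, but the place of T4 depends on the scaling. T4 had a TMM factor of 1.85, and as a share of the reads in the miRNA table the family was higher in T4 (0.565%) than in C3 (0.347%) and C5 (0.286%). The group means were 20.6% ± 7.42 and 34.1% ± 13.3 (SD, n = 3 each, p = 0.2 by the same exact permutation test, adjusted 0.6). The difference of 13.4 percentage points was of the size of the spread between replicates. With 1 library left out it ranged from 8.19 to 20.9 percentage points. The 16 nt row took 0.671% of its own and the sly-miR396a-5p reads in T2 (95% Wilson interval 0.480% to 0.936%) and 0.117% to 0.366% in the other libraries that had any. In C3 it had 0 of 195 reads, which allows up to 1.54%, and the interval of T2 overlapped that of each other library, each of which rests on 0 or 1 read of this row.

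The 3p strand ranged widely against the 5p strand. 3p reads were 2.23% of the miR396 reads in C1 (95% Wilson interval 1.85% to 2.67%), 22.6% in C3 (20.6% to 24.6%) and 4.99% in C5 (3.85% to 6.45%). They were 0.238% in T2 (0.163% to 0.346%), 22.4% in T4 (19.8% to 25.2%) and 4.81% in T6 (4.17% to 5.54%). Each group thus held 1 library above 20% and 2 libraries below 6%, and the highest share was 95.0 times the lowest. The group means were 9.93% ± 11.0 and 9.14% ± 11.7 (control and KPhi, SD, n = 3 each, p = 0.7 by the same exact permutation test, adjusted 0.7). The difference of -0.79 percentage points turned to 5.53 without C3, 3.66 without T2 and 1.37 without T6. C3 and T4 were also the libraries with the largest share of raw reads longer than 32 nt, 13.6% and 33.5% against 3.13% to 10.1% in the others, and had the lowest and the highest TMM factor (0.746 and 1.85, against 0.895 to 0.947). The part of these values in the 3p share was not tested. In C3 the 3p sequence was also at its highest as normalized CPM, and in T4 the 5p sum was at its lowest (2369).

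**Figure D3:**
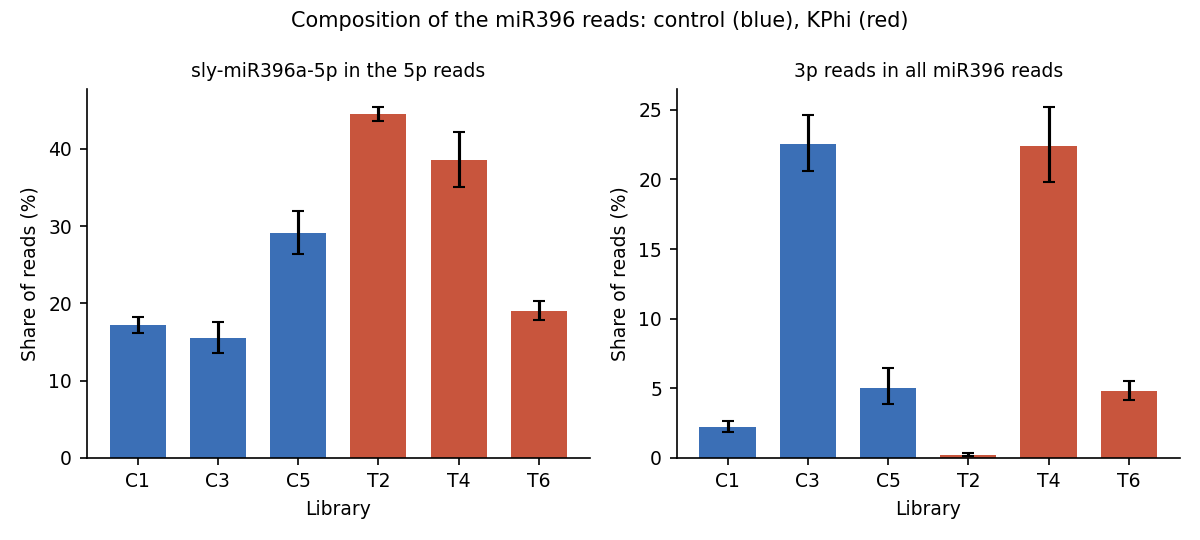
Share of sly-miR396a-5p in the 5p reads (left) and of 3p reads in all miR396 reads (right) in each library, in percent, control in blue and KPhi in red, with 95% Wilson intervals. The 3p share was 22.6% in C3 and 22.4% in T4 and below 6% elsewhere.

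Other families with named 5p and 3p rows were compared for how far their arm use moved between libraries. Only rows whose name gives the arm were counted, and in 7 families both arms had at least 100 reads. For miR166 this left out sly-miR166a_L+2R-2 and stu-miR166b, with mean levels of 297844 and 109418 of the family's 818574 normalized CPM. The miR166 range below thus rests on part of its reads. On the log2 scale of 3p over 5p reads, miR396 covered 6.91 units from T2 to C3, the widest range of the 7, followed by miR166, which targets HD-ZIP III factors, with 4.53. miR162 and miR168, which act on the mRNAs of DCL1 and AGO1, proteins of the miRNA pathway itself, covered 2.98 and 2.74, and miR482, of resistance gene control, 1.25. T2 was the lowest library for miR396, but the highest for miR166, miR162, miR168, miR1919 and miR482. T4 was the lowest for these 5 families. miR171, which covered 2.15, had its highest 3p share in T4 (34.3%) and its lowest in C1 (10.5%), with T2 between them. These comparisons were chosen after the values were seen and describe these 6 libraries.

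**Figure D4:**
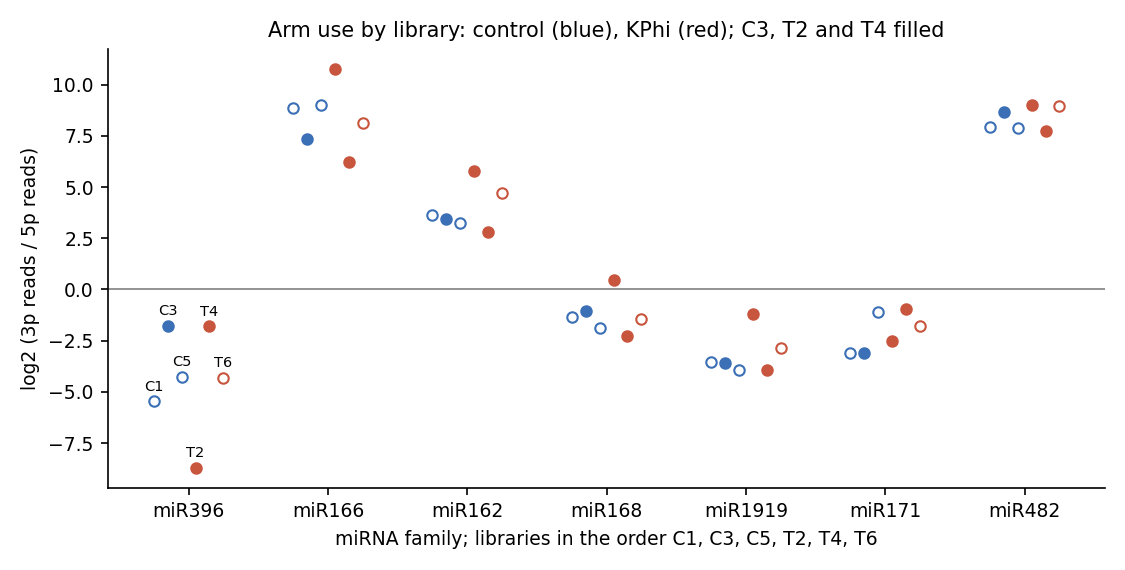
log2 ratio of 3p to 5p reads in each library for the 7 families with at least 100 reads in each arm, control in blue and KPhi in red, with C3, T2 and T4 filled. Only rows whose name gives the arm were counted. miR396 covered 6.91 log2 units, with T2 at the bottom and C3 and T4 at the top.

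The sequences whose level followed the summed 5p reads most closely over the 6 libraries were found by Pearson's r on log2 normalized CPM. They were stu-miR6027_R-1, of a Solanaceae family that acts on resistance genes (r = 0.98), the predicted sequences PC-3p-16718_128 (0.96) and PC-3p-66564_24 (0.95), stu-miR162a-3p (0.94) and sly-miR168b-3p_L+1 (0.91). Without T2 their r was 0.92, 0.86, 0.87, 0.81 and 0.74. These values share the libraries and their scaling, and each of the 5 sequences was highest in T2. stu-miR162a-3p had 2661 (C1), 1080 (C3) and 1893 (C5) normalized CPM in the control and 7606 (T2), 746 (T4) and 1942 (T6) in the KPhi libraries, so that it shared with the 5p sum the order T2, C1 at the top and T4 at the bottom. PC-3p-66564_24 rests on 51 reads in all. The log2 fold changes of the 5 sequences ranged from 0.13 to 1.02, with edgeR adjusted p-values of 0.590 to 0.889, and none separated control from KPhi libraries. sly-miR396a-3p_1ss10AG went the other way (r = -0.73, and -0.41 without T2).

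miR396 was set beside the other miRNA families of leaf growth and development, miR156, miR159, miR160, miR164, miR166, miR167, miR171, miR172, miR319 and miR390. With miR396 these 11 families had 62 rows in the table, and 21 rows of 8 families were tested. Their log2 fold changes were above 0 in 4 rows and below 0 in 17, with a median of -0.49, while the median of all 165 sequences was -0.13, with 43.6% above and 56.4% below 0. The rows below 0 included all 8 of miR166 and all 3 of miR171. Rows of the same family are not separate observations, so the counts and the median lean on few families. The 4 rows above 0 were both 5p sequences of miR396 and both tested rows of miR167, a regulator of auxin response factors. None passed an adjusted p of 0.05 in edgeR, DESeq2 or limma-trend, where DESeq2 gave sly-miR396a-5p no p. At an unadjusted p under 0.05 edgeR gave 1 higher and 5 lower, 28.6% of the list against 9.70% of all sequences. With 1 library left out, the count of 6 became 2 (C1), 0 (C3), 1 (C5), 1 (T2), 4 (T4) or 5 (T6). Each such fit counts any row of the list under the threshold. The 6 rows with all libraries included sly-miR396a-5p and sly-miR319a_L-1R+2, which targets TCP mRNAs (-2.29, SE 0.55, edgeR adjusted p = 0.278). The latter had 43.1 (C1), 28.7 (C3) and 44.4 (C5) normalized CPM against 2.98 (T2), 10.1 (T4) and 9.63 (T6). It reached the filter's 10 reads in control libraries only, so it was tested only through the group where it is high. The others were the miR171 sequences sly-miR171d_R+1_1ss8GA (-1.36) and stu-miR171a-5p (-1.13), and the miR166 sequences stu-miR166b (-1.28) and sly-miR166c-3p_R+1 (-1.08). The miR171 family is known for targeting GRAS factors, but for stu-miR171a-5p the study selected another predicted target, methylketone synthase Ib. The row of the other arm, stu-miR171a-3p, had -0.23 (SE 0.66). The family totals of miR319 and miR166 had log2 fold changes of -1.58 and -0.54 (SE 0.49 and 0.42, edgeR adjusted p = 0.375 and 0.645 over 32 families). The miR171 total, added after its values were seen, had -1.07 (SE 0.38, edgeR adjusted p = 0.375). Control and KPhi libraries did not overlap in these 3 totals, as in 15.6% of the families, while they overlapped for miR396. They also overlapped for the totals of miR159, miR160, miR164, miR167 and miR390, which were added after the values were seen. The log2 fold change was 0.65 for miR167 and -0.01 for miR390, and it was below 0 for the others of these. When libraries were scaled by their size alone, 10 rows of the list were above 0 and 11 below.

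**Figure D5:**
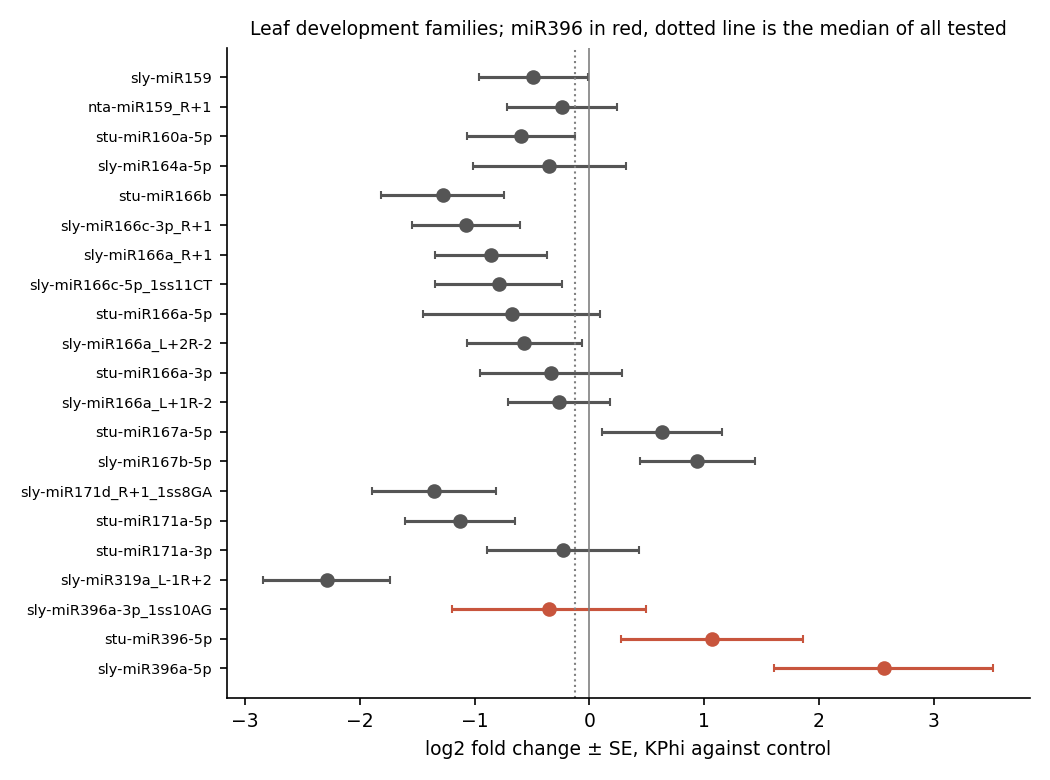
log2 fold change (KPhi against control) with its standard error for the 21 tested sequences of leaf development families, miR396 in red, with a dotted line at the median of all 165 sequences (-0.13). The miR396 5p sequences had values of 2.56 and 1.07 and wider standard errors (0.96 and 0.79) than most of the list.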

How the data were processed

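Small RNA libraries of 3 control and 3 KPhi leaf samples, stated by the study to be biological replicates, were analysed as deposited. The authors filtered reads with ACGT101-miR (version and genome build not given in the sources used here) and searched miRBase precursors and the potato genome by BLAST. They deposited read counts per filtering step and estimated counts per sequence, some of them fractional, and normalized signal values, which are these reads divided by 1 parameter per library. The deposited test results (means, SDs and p-values) were not used. The library totals in the miRNA table were 160906 to 612257 rounded reads.
Reads were rounded and tested with edgeR 4.0.16 (R 4.3.3, TMM, quasi-likelihood test, at least 10 reads in at least 3 libraries, Benjamini-Hochberg over all 165 sequences, threshold 0.05), where the biological coefficient of variation was 49.8%. For families, reads were summed over rows written -miR and tested with the same library sizes. Shares were compared by exact permutation tests (scipy 1.17.1). Alternatives used DESeq2 1.42.0 on the reads and limma 3.58.1 on log2 of the authors' normalized values plus 1. Pairing used RNAduplex 2.7.2. Likeness used log2 normalized CPM with a prior count of 2. The scripts were tested on simulated data with 200 changed sequences. Named sequences were all miR396 rows, the 5 most like the 5p sum, members of the leaf list with an unadjusted p under 0.05, and the totals of miR319 and miR166. Members and lists were chosen with earlier results of these data known. No genome of the build used was at hand, so no position is given.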

Additional observations from a re-analysis of the deposited data

How the results depend on the processing

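No paired analysis was made, because no replicate number occurs in both groups. No label or method says whether libraries of neighbouring numbers, such as C3 and T4, share an experiment. A batch shared by such neighbours was not tested. Without a filter on low reads, 1 of the 3 tested members and 2 rows of the leaf list passed an adjusted p of 0.05 (0 and 0 with the filter). The second of these rows was the 16 nt row. No other setting changed these counts, though that of DESeq2 lacks sly-miR396a-5p, which it gave no p. Leaving out T2 turned stu-miR396-5p and the family total below 0 and took sly-miR396a-5p from 2.56 to 0.19. With 1 library left out, log2 fold changes ranged from -0.25 to 1.91 for stu-miR396-5p, from 0.19 to 3.32 for sly-miR396a-5p, from -1.09 to 1.19 for sly-miR396a-3p_1ss10AG and from -0.12 to 2.11 for the family total. The difference in 3p share ranged from -7.41 to 5.53 percentage points, and that in the share of mappable reads from -0.0091 (without T2) to 0.0513. Scaling by library size alone turned sly-miR396a-3p_1ss10AG to 0.55, and scaling by mappable reads took stu-miR396-5p from 1.07 to 0.24, sly-miR396a-5p to 1.57 and the family total from 1.41 to 0.56. These scalings moved the median of all sequences from -0.13 to 0.35 and to -0.49. Limma-trend took stu-miR396-5p to 0.52, sly-miR396a-5p to 1.49 and the family total to 0.79. It was run on log2 of the authors' normalized values plus 1, so its scaling differs from the main fit along with the test. Leaving out C3 and T4 together, chosen after the data were seen, turned none of the 3 shares. The causes were not tested. The rows of 38 and 7 reads are limited by depth.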

Other observations

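Among the tested sequences highest in T2, the ratio of T2 to the next library was 10.2 for sly-miR396a-5p and 7.32 for sly-miR5300, a Solanaceae miRNA that acts on resistance genes. It was 5.37 for the predicted sequence PC-3p-10278_209 and 3.99 for stu-miR6026-3p. Sequences that did not reach the filter can have larger ratios, such as 30.2 for the 16 nt miR396 row, with 34 reads in T2. Without a filter on low reads, 4 of 841 sequences passed an adjusted p of 0.05 in edgeR, and all 4 had most of their reads in T2. Besides sly-miR396a-5p and the 16 nt miR396 row, these were PC-5p-14147_152, with 153 reads in T2 and 1 to 6 in each other library, and PC-3p-10278_209, with 267 reads in T2 and 21 to 77 in each other library. They are named after their values were seen.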
